A study of Mus musculus with 38 samples.

Results

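The genes described here encode the proteins of the mitochondrial ribosome and are followed in mouse oligodendrocyte precursor cells (OPCs) across 8 groups set by genotype and time of day. They were taken as the protein-coding genes of the count table whose symbol begins with Mrpl or Mrps followed by a digit, which gave 78 of 54532 genes, 49 named for the large subunit and 29 for the small subunit. OPCs are the dividing glial cells that mature into myelinating oligodendrocytes. They were purified from forebrains of mice at postnatal days 6 to 7 by passing cells over plates that hold back microglia and endothelial cells and then over an antibody against PDGFRα, a receptor on the OPC surface. Every library came from 2 pooled mice, and every mouse carried Bmal1fl/fl, floxed alleles of the clock transcription factor BMAL1. Mice called WT were NG2::Cre-;Bmal1fl/fl and mice called KO were NG2::Cre+;Bmal1fl/fl, in which the NG2 (Cspg4) promoter drives Cre. No group with Cre and intact Bmal1 was analysed here, so effects of Cre and of the deletion cannot be told apart. Cells were collected at zeitgeber times (ZT, hours after lights on) 0, 6, 12 and 18 under 12 h of light followed by 12 h of dark. WT had 4, 5, 6 and 4 libraries at these times and KO had 4, 7, 4 and 4.

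The mitochondrial ribosome, or mitoribosome, makes the few proteins encoded by mitochondrial DNA, all of them subunits of the respiratory chain and the ATP synthase. Its ribosomal RNAs come from mitochondrial DNA, but all of its proteins are encoded in the nucleus, made in the cytosol and imported. The small subunit binds the messenger RNA and decodes it, and the large subunit joins the amino acids and threads the growing protein towards the inner membrane. Genes for mitochondrial proteins are often described as targets of NRF1, the ETS factor GABPA and YY1, whereas BMAL1 acts with CLOCK on E-boxes.

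Libraries held 19.4 to 39 M counts with a median of 25.9 M, and the 78 genes together took 0.1555% to 0.2243% of them, or 32628 to 75619 counts. Ribosomal RNA genes took at most 0.263% of counts in 8 libraries and at least 0.409% in the other 30. Called low-rRNA libraries here, the 8 comprised all 4 libraries of KO ZT18, replicates 4, 5 and 6 of WT ZT12 and replicate 7 of KO ZT6, so at ZT18 the split and the genotype cannot be told apart. OPC markers were present throughout, summing to 13100 to 19900 CPM (counts scaled to the size of the library), and all 12 of them were detected in every library. Microglia markers summed to 3460 to 15700 CPM, with all 12 detected in every library. In bulk RNA a smaller share of cells of a type and less RNA per cell cannot be told apart. The counts of Arntl, the gene for BMAL1, do not check the genotypes: its group means were 19.2 to 25.6 CPM with WT and KO interleaved. The study's design text speaks of a loss of the DNA-binding domain of BMAL1 and not of the whole gene, and counts by exon were not analysed here.

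Of the 78 genes, 77 had enough counts to be tested. Mrpl53 (chromosome 6), a large subunit gene, was listed at 0 counts in all 38 libraries. It shares exon bases with Gm42688 on the same strand and with Ccdc142os on the opposite strand. The part of these overlaps in its missing counts was not tested, so the counts do not show that Mrpl53 is silent. Per kilobase of the gene length in the table, Mrpl52, Mrpl34 and Mrps21 were highest, at 27.1, 26.8 and 26.1 CPM per kb on average over the 38 libraries. These 3 levels lay closer together than the typical spread between libraries of a group, whose median over the 77 genes was an SD of 0.185 on the log2 scale. Mrps25, Mrps35 and Mrpl47 were lowest, at 2.47, 2.5 and 2.59 CPM per kb, and they too lay within that spread of each other. The median level was 10 CPM per kb for the 48 tested large subunit genes and 6.97 for the 29 small subunit genes. The length in the table may join several transcript forms, which lowers the level per kb of genes with long alternative ends. Spread within groups ran from an SD of 0.11 for Mrpl37 to 0.37 for Mrps34 on the log2 scale.

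The genes were scattered over 17 chromosomes, with 11 on chromosome 11, 8 on chromosome 17 and 7 on chromosome 6. Many stand head to head with another gene: 33 of 78 (42.3%) had a coding neighbour on the opposite strand whose start lay within 1000 bases, against 10.8% of 22046 protein-coding genes. Mrps12 starts 172 bases from Sars2, which encodes the mitochondrial seryl-tRNA synthetase, and Mrps11 and Mrpl46, both of the set, overlap at their starts. In all, 28 members share exon bases with a gene on the opposite strand and 8 with a gene on the same strand. The sources used here do not say whether counting used strand, so the values of all 28 are less certain. Among them are Mrps11, Mrps7 (overlapping Gga3 and Mif4gd), Mrps34 (Mapk8ip3), Mrpl13 (Mtbp), Mrpl27 (Eme1), Mrpl19 (Gcfc2) and Mrpl12 (Gm16755). Counting by strand would not separate the 8 overlaps on the same strand, so the values of these genes are uncertain too. They include those of Mrps24 with Urgcp, Mrps34 with Nme3 and Mrpl51 with Mir3098.

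Promoter windows of RefSeq (GRCm38.p6, 250 bases before to 50 bases after a transcript start) were found for 69 of the 78 genes and gave 75 windows. The ETS motif CCGGAAG, on either strand, occurred in 34.7% of these windows and in 11.9% of the windows of all protein-coding genes. The NRF1 motif (GCGCA, any base, GCGC) occurred in 17.3% against 6.6%, and the YY1 motif AAGATGGC in 16.0% against 3.11%. The E-box CACGTG, which reads the same on both strands, occurred in 9.33% against 8.05%. Its 7 member windows came from only 5 genes, whereas for the other motifs each member window with a match came from a different gene. A match is a stretch of letters and not a shown binding site, and the motifs were picked after the files were seen. The 30-base stretches that follow, read in the direction of the gene with the match in capitals, come from genes that carry the differences described below. They are a selection. Not shown are matches of such genes for YY1 (Mrps12, Mrps24), ETS (Mrps33, Mrpl57, Mrps26) and NRF1 (Mrpl57, Mrps26). The E-boxes of Mrpl20 and Mrpl2 are the only ones found in these genes, so E-boxes take a larger share here than among all the matches. Positions count the transcript start as 1, with the base before it as -1.

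Mrps21, NRF1 motif from position -91, chr3:95871586-95871615 (-): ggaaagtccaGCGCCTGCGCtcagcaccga
Mrps21, ETS motif from position 19, chr3:95871478-95871507 (-): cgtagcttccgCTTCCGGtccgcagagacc
Mrps12, ETS motif from position 2, chr7:28741802-28741831 (-): aaggaggaaccCCGGAAGgggctggaggta
Mrps11, YY1 motif from position -107, chr7:78783013-78783042 (+): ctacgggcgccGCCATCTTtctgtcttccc
Mrps7, YY1 motif from position 19, chr11:115604147-115604176 (+): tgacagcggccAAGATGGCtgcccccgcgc
Mrpl51, ETS motif from position -90, chr6:125192099-125192128 (+): caggggctaaaCCGGAAGtatttgactgga
Mrpl20, E-box from position -33, chr4:155802833-155802862 (+): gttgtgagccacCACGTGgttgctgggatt
Mrpl2, E-box from position -131, chr17:46646078-46646107 (+): actgccgcccgtCACGTGacccgagcaacc

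For Mrpl52, the gene with the highest level per kb, the 160 bases before the start (chr14:54426749-54426908, +) hold 1 of these motifs, the ETS motif in capitals:
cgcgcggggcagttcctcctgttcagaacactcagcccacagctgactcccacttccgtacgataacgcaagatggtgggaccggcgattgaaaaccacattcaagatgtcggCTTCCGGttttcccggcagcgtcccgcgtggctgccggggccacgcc

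Of the 19 genes called at a single time or in the interaction below, 16 had a window and 12 of these held at least 1 of the 4 motifs, where 45 of all 69 members with a window (65.2%) and 28% of the 16497 protein-coding genes with one did. The called genes are thus close to the whole family in this count. Mrps5, 1 of the genes called at ZT12, had a window with none of them.

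The level of the whole family was first followed as the mean log2 CPM of the 77 tested genes in each library. In WT this mean was 4.12, 4.21, 4.28 and 4.44 in the 4 libraries of ZT0 and 4.24, 4.31, 4.22, 4.38 and 4.30 in the 5 of ZT6. It ran from 4.34 through a median of 4.41 to 4.49 at ZT12, and was 4.39, 4.44, 4.34 and 4.37 at ZT18. In KO it was 4.49, 4.52, 4.75 and 4.39 at ZT0 and ran from 4.21 through a median of 4.36 to 4.65 at ZT6. KO ZT12 was the lowest KO group, at 4.24, 4.29, 4.18 and 4.33, and KO ZT18 the highest, at 4.56, 4.54, 4.61 and 4.58. KO and WT libraries overlapped at ZT0 and ZT6 and lay apart at ZT12, narrowly and with KO lower, and at ZT18, with KO higher. At ZT12 the 3 low-rRNA WT libraries were 4.42 to 4.49 and the other 3 were 4.34 to 4.40, the latter also above all KO ZT12 libraries. The means of the 2 subunits lay on the same side of their medians in 32 of 38 libraries.

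**Figure D1:**
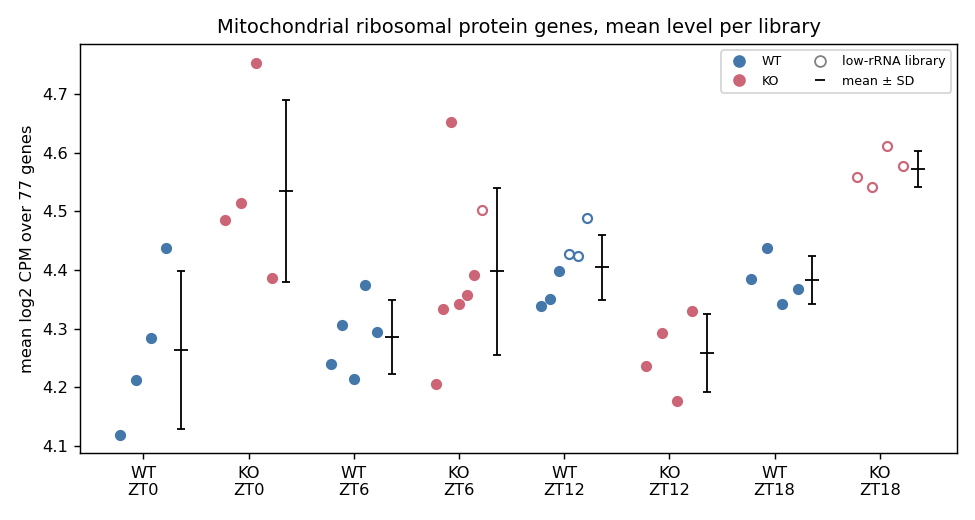
Mean log2 CPM over the 77 tested genes (vertical axis) in each library of the 8 groups (horizontal axis), with open circles for low-rRNA libraries and a bar for the group mean ± SD. KO ZT12 lies lowest among the KO groups and KO ZT18 highest, between 4.54 and 4.61.

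Differences of single genes are given as the log2 of the KO to WT fold change, with SE for its standard error. Every adjusted p is that of the quasi-likelihood test of edgeR, adjusted by the Benjamini-Hochberg method over all 22798 genes tested, and a gene is called when its adjusted p is under 0.05. Counts of calls from other tools or with libraries left out mostly stand without the share of all genes called in that setting. Such counts do not tell a change of the family from a change across all genes.

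Over the mean of the 4 times, none of the 77 genes was called, where 0.0921% of all genes tested were. The fold changes were small and mostly to 1 side: 72 of 77 were positive (45.6% of all genes tested were), and the median was 0.10 against -0.02 for all genes. Unadjusted p-values were under 0.05 for 27 of the 77, all with KO higher, against 7.42% of all genes with KO higher and 7.69% with KO lower. DESeq2 called 3 and limma-voom 0 of the 77. The smallest p-values were those of Mrps16 of the small subunit, with 0.25 (SE 0.0632, adjusted p = 0.0958), and to Mrpl13 and Mrpl27 of the large subunit, with 0.20 (SE 0.0525, adjusted p = 0.102) and 0.25 (SE 0.071, adjusted p = 0.111). With WT ZT0 replicate 4 left out, 6 genes were called, and with KO ZT0 replicate 4 left out, 1.

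At ZT0, lights on, the median log2 fold change of the family was 0.27, more than at the other 3 times, against -0.05 for all genes, and 72 of 77 genes were positive against 45.5% of all genes. No gene was called (0.285% of all genes were). Unadjusted p-values were under 0.05 for 35 genes, all with KO higher, against 10% of all genes with KO higher and 8.35% with KO lower. DESeq2 called 8 and limma-voom 0. For 17 genes every KO library lay above every WT library, against 2.6% of all genes, and for none did all lie below, against 2.64%.

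Mrpl15, a protein of the large subunit core, was 20.3, 18.9, 25.3 and 24.7 CPM in WT and 33.4, 32.3, 35.9 and 25.4 CPM in KO at ZT0. The groups did not overlap, though the lowest KO library stood just above the highest WT library, and the log2 fold change was 0.51 (adjusted p = 0.054). Mrps7, which sits in the head of the small subunit, was 38, 36.2, 41.4 and 40.5 CPM in WT and 57.9, 51.1, 59.5 and 41.6 CPM in KO, with a log2 fold change of 0.43 (adjusted p = 0.0549). For this gene too, KO replicate 4 lay next to WT and the other 3 KO libraries well above. Mrps33, a small subunit protein, was 14.1, 19.8, 18.8 and 20.6 CPM in WT and 25.2, 24.4, 35.5 and 24.1 CPM in KO, with a log2 fold change of 0.58 (adjusted p = 0.0575). Here KO replicate 3 stood above the other 3 KO libraries. All 3 genes missed the threshold.

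The count at ZT0 rested on single libraries. It was 21 with WT ZT0 replicate 4 left out, the WT ZT0 library with the highest family mean, 8 without KO ZT0 replicate 4 or without KO ZT6 replicate 3, and 2 without WT ZT12 replicate 1. Microglia markers summed to 4928 to 12080 CPM in WT and 3460 to 6924 CPM in KO at ZT0, with 0 of 12 called and 12 of 12 lower in KO. OPC markers summed to 13800 to 17420 CPM in WT and 16200 to 18410 CPM in KO, with 10 of 12 positive and 0 called. Median log2 fold changes were 0.44 for red blood cell markers (6 of 7 positive) and 0.20 for neuron markers (10 of 12). They were -0.14 for oligodendrocyte (3 of 8), -0.06 for astrocyte (4 of 8) and -0.01 for endothelial markers (3 of 8), with 0 called. The part of these differences in cell makeup in the fold changes of the family was not tested.

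At ZT6 no gene was called (0.0132% of all genes were), 64 of 77 fold changes were positive against 50.5% of all genes, and the median was 0.12 against 0 for all genes. Unadjusted p-values were under 0.05 for 11 genes, all with KO higher (2.28% of all genes had KO higher and 2.11% lower). DESeq2 and limma-voom called 0 as well. Mrps16 had the smallest p-value: it was 10.1, 11.8, 11.6, 13.4 and 9.99 CPM in WT and ran from 13.2 through a median of 15.8 to 16.3 CPM in KO. Only the lowest KO library fell inside the WT range, yet the log2 fold change of 0.42 (SE 0.113) had an adjusted p of 0.974. Mrpl19 and Mrpl15 followed with 0.37 (SE 0.108) and 0.31, both at an adjusted p of 0.974. Fold changes were positive for 12 of 12 microglia, 8 of 8 astrocyte, 8 of 8 oligodendrocyte and 6 of 7 red blood cell markers. They were positive for 8 of 12 neuron, 4 of 8 endothelial and 4 of 12 OPC markers. None of these markers was called, and their part was not tested.

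At ZT12, lights off, the family turned to the other side. Small subunit genes supplied all 4 calls, Mrps21, Mrps12, Mrps5 and Mrps11, and all 4 fell in KO. This was 4 of 77 genes, where 5% of all genes tested were called, 3.69% with KO lower and 1.31% with KO higher, so the share is near the background. The median log2 fold change was -0.11 against -0.01 for all genes, at -0.18 for the small and -0.10 for the large subunit, and 56 of 77 genes were negative, where 49.1% of all genes were positive. Unadjusted p-values were under 0.05 for 21 genes with KO lower and 4 with KO higher, against 12.3% and 7.79% of all genes. Those 21 were 11 of the 48 large and 10 of the 29 small subunit genes. The smallest adjusted p of a large subunit gene was 0.0531, just past the threshold. For 8 genes, 4 of each subunit, every KO library lay below every WT library, against 3.15% of all genes. For none did all lie above, against 2.12%. The 43 tested members among the shortest quartile of protein-coding genes had a median of -0.20, and all 3957 genes of that quartile -0.15.

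Mrps12, which lines the decoding centre, was 12.2 CPM at its lowest, 15.7 at its median and 16.9 at its highest in the 6 WT libraries at ZT12, and 10.5, 11.5, 3.16 and 10.2 CPM in KO. All KO libraries lay below all WT libraries, and replicate 3 stood far below the other KO libraries. The log2 fold change was -0.78 (SE 0.203, adjusted p = 0.0200). Mrps21, a small subunit protein with a bacterial relative, was 16.7, 20.1 and 24.7 CPM (lowest, median, highest) in WT and 11.4, 15.1, 9.19 and 16.3 CPM in KO. These groups did not overlap either, and the log2 fold change was -0.67 (SE 0.170, adjusted p = 0.0172).

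Mrps5, on the side of the small subunit where the messenger RNA enters, was 48.0, 48.7 and 55.3 CPM (lowest, median, highest) in WT and 40.0, 45.7, 29.0 and 41.4 CPM in KO. KO lay below WT without overlap, again with replicate 3 lowest, and the log2 fold change was -0.36 (SE 0.0973, adjusted p = 0.0265). Mrps11, of the platform of the small subunit, was 15.3, 21.3 and 23.1 CPM in WT and 12.4, 14.2, 15.4 and 15.6 CPM in KO. A single WT library at 15.3 CPM reached into the KO range, and the log2 fold change was -0.48 (SE 0.147, adjusted p = 0.0472).

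The calls at ZT12 did not hold in every set of libraries. With the low-rRNA libraries left out, which removes 3 of the 6 WT libraries, none of the 77 genes was called and the log2 fold changes were -0.87 for Mrps12, -0.51 for Mrps21, -0.33 for Mrps5 and -0.49 for Mrps11, with adjusted p of 0.219, 0.401, 0.322 and 0.345. Leaving out KO ZT12 replicate 3 gave 0 calls, leaving out KO ZT12 replicate 1 gave 1 and leaving out WT ZT12 replicate 6 gave 2, whereas 9 were called without WT ZT12 replicate 1 or KO ZT12 replicate 4 and 8 without WT ZT12 replicate 2 or KO ZT12 replicate 2. Of the OPC markers at ZT12, 2 of 12 were called lower in KO and 4 of 12 were positive, with a median of -0.32. Their summed levels were 15620 to 19010 CPM in WT and 13510 to 17540 CPM in KO. Oligodendrocyte markers had a median of -0.34 (1 of 8 positive, 1 called lower). Medians were -0.18 for endothelial (3 of 8 positive), -0.07 for red blood cell (3 of 7) and -0.06 for neuron markers (6 of 12). They were -0.04 for microglia (5 of 12) and 0.02 for astrocyte markers (4 of 8), with 0 called in these 5 lists. The part of these differences in the calls was not tested.

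**Figure D2:**
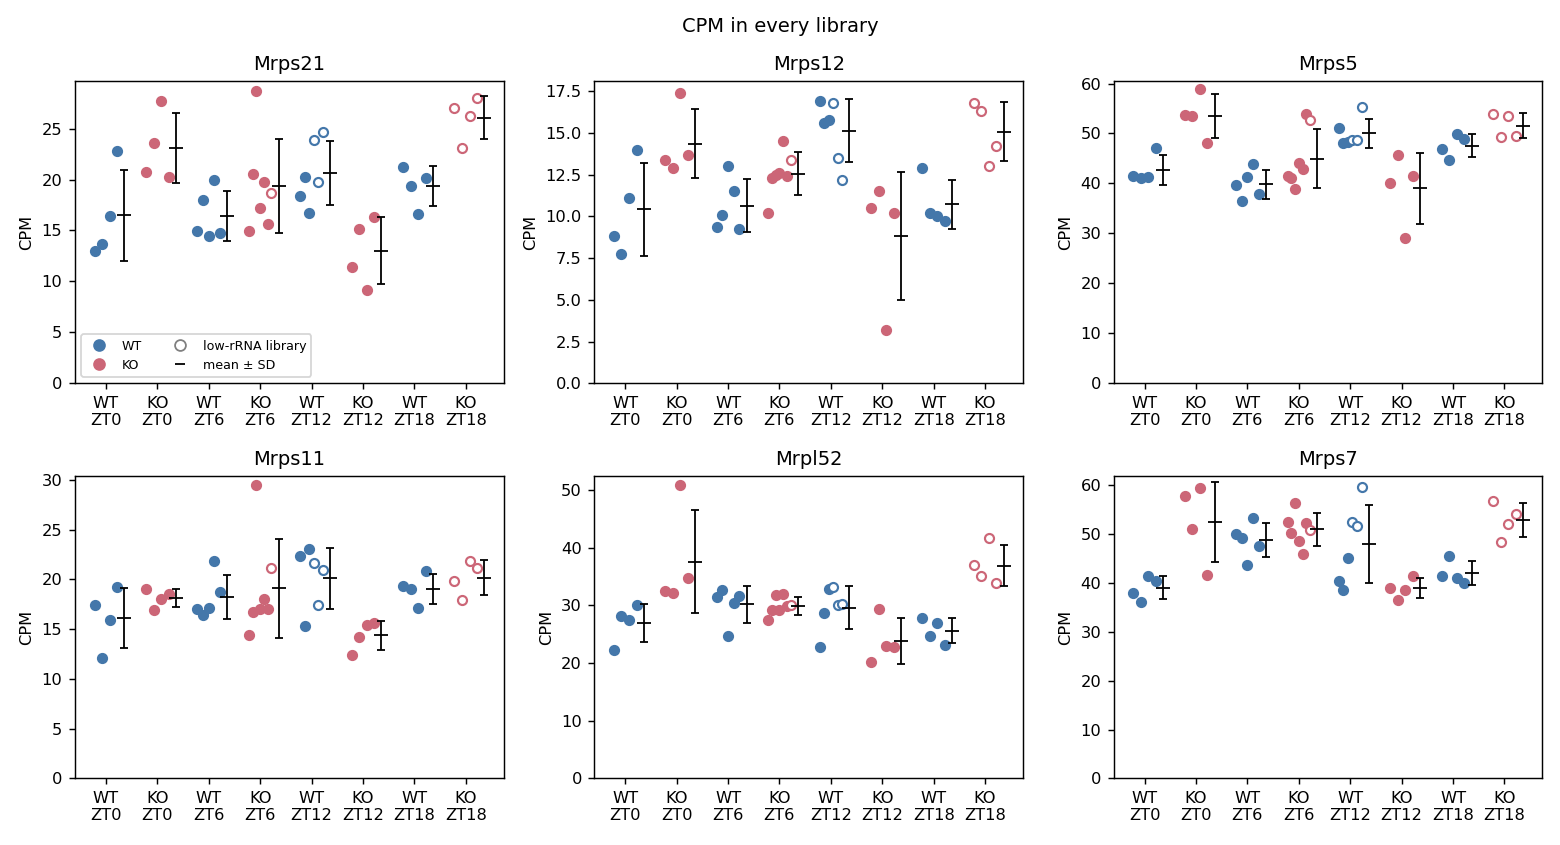
CPM (vertical axes, from 0) of 6 genes in each library of the 8 groups (horizontal axes), with open circles for low-rRNA libraries and bars for the mean ± SD. For Mrps12 at ZT12, the KO libraries lie at 3.16 to 11.5 CPM and the WT libraries at 12.2 to 16.9 CPM.

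At ZT18, in the dark, the family again lay to the KO side. Mrpl52, a protein of the large subunit without a bacterial relative, was the 1 gene called, where 2.14% of all genes tested were called and 1.39% with KO higher and 0.746% with KO lower. It was 27.8, 24.6, 26.9 and 23.1 CPM in WT and 37.0, 35.0, 41.7 and 33.8 CPM in KO, without overlap, and rose by 0.53 (SE 0.129, adjusted p = 0.027). Mrpl41, another large subunit protein, was 18.5, 17.0, 17.7 and 18.4 CPM in WT and 24.3, 22.9, 28.5 and 26.6 CPM in KO, with 0.51 (SE 0.151, adjusted p = 0.0576). Mrpl2, close to the site where amino acids are joined, was 19.9, 19.1, 19.4 and 17.2 CPM in WT and 26.0, 27.3, 27.0 and 26.9 CPM in KO, with 0.50 (SE 0.148, adjusted p = 0.0583). The groups of these 2 genes did not overlap, but neither was called.

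Over the family, 61 of 77 fold changes at ZT18 were positive against 49.6% of all genes, and the median was 0.16 against 0, at 0.22 for the large and 0.11 for the small subunit. The 43 tested members among the shortest quartile of protein-coding genes had a median of 0.29, and all 3957 genes of that quartile 0.20. Of these members 93% were positive, and of all genes of that quartile 70.4%. Every KO library lay above every WT library for 27 genes, 20 of them of the large subunit, against 10.4% of all genes, and for none did all lie below, against 8.18%. Unadjusted p-values were under 0.05 for 24 genes, all with KO higher, against 9.61% of all genes with KO higher and 8.57% with KO lower. The call of Mrpl52 was lost when any 1 of 7 libraries was left out, namely WT ZT18 replicate 2, 3 or 4 or any KO ZT18 library, while 2 genes were called without WT ZT0 replicate 4, KO ZT6 replicate 1 or 7, or KO ZT12 replicate 3 or 4. All KO ZT18 libraries were low-rRNA libraries, so no value without those libraries exists. Of the markers of other cells at ZT18, oligodendrocyte markers summed to 319.1 to 375.1 CPM in WT and 558.6 to 752.1 CPM in KO with 4 of 8 called higher, red blood cell markers to 3091 to 3516 and 4651 to 7812 CPM with 0 of 7 called, and microglia markers to 4081 to 11450 and 9297 to 13080 CPM with 0 of 12 called. Neuron markers had a median log2 fold change of 0.56 (10 of 12 positive), endothelial markers 0.53 (8 of 8) and astrocyte markers 0 (3 of 8), with 0 called. Their part in the result was not tested.

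**Figure D3:**
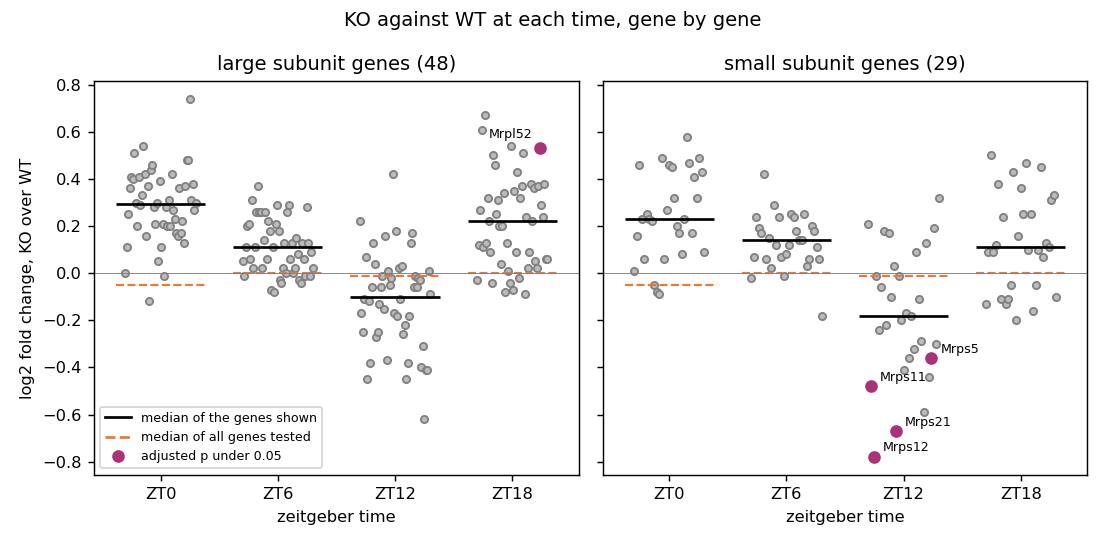
Log2 fold change of KO over WT (vertical axis) at each zeitgeber time (horizontal axis) for each tested gene of the large subunit (left) and small subunit (right), with black lines for their median and dashed lines for the median of all genes tested. Points lie mostly above 0 at ZT0, ZT6 and ZT18 and mostly below at ZT12, where the 4 called genes are of the small subunit.

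The size of the KO difference depended on time for 18 of the 77 genes (23.4%, where 9.19% of all genes tested were called), 11 of the large and 7 of the small subunit. For all 18 the log2 fold change was lowest at ZT12, which held for 64.2% of all genes called in this test and 34.5% of all genes tested. For 16 it was negative at ZT12 and positive at the other 3 times. That sign pattern was seen in 43 of the 77 members (55.8%), in 15.3% of all genes tested and in 45.5% of all genes called in this test.

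Mrpl52 had the smallest p-value (adjusted p = 0.00283), with log2 fold changes, in the order of the 4 times, of 0.48, -0.01, -0.31 and 0.53. In KO it was 32.5, 32.2, 50.8 and 34.8 CPM at ZT0, ran from 27.5 through 29.8 to 32.0 CPM at ZT6, and was 20.2, 29.4, 22.9 and 22.7 CPM at ZT12. In WT it was 22.2 to 30 CPM at ZT0, between 24.7 and 32.7 CPM at ZT6, and between 22.8 and 33.2 CPM at ZT12. The KO groups of ZT0 and ZT18 thus lay above the other 2 KO groups, while the 4 WT groups overlapped. Mrps7 followed, with log2 fold changes of 0.43, 0.06, -0.30 and 0.33 (adjusted p = 0.00339). At ZT12 it was 38.6, 48.4 and 59.6 CPM (lowest, median, highest) in WT and 39.1, 36.6, 38.6 and 41.5 CPM in KO, and at ZT18 41.5, 45.6, 41.1 and 40.0 CPM in WT and 56.9, 48.4, 52.2 and 54.2 CPM in KO. At ZT12 the 3 low-rRNA WT libraries held its highest values. Mrps21 came next, with 0.49, 0.24, -0.67 and 0.43 (adjusted p = 0.00445), and in KO its levels at ZT18, 27.0, 23.1, 26.2 and 28.0 CPM, were all above those at ZT12 given above.

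None of the 77 genes, and no gene of the whole table, kept an adjusted p under 0.05 in the interaction when the low-rRNA libraries were left out, which also removes ZT18 from the test. With ZT18 left out and the low-rRNA libraries of the other times kept, 10 of the 77 genes were called, and Mrpl52, Mrps7 and Mrps21 had adjusted p of 0.0341, 0.019 and 0.0221. Leaving out KO ZT12 replicate 1 gave 10.

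**Figure D4:**
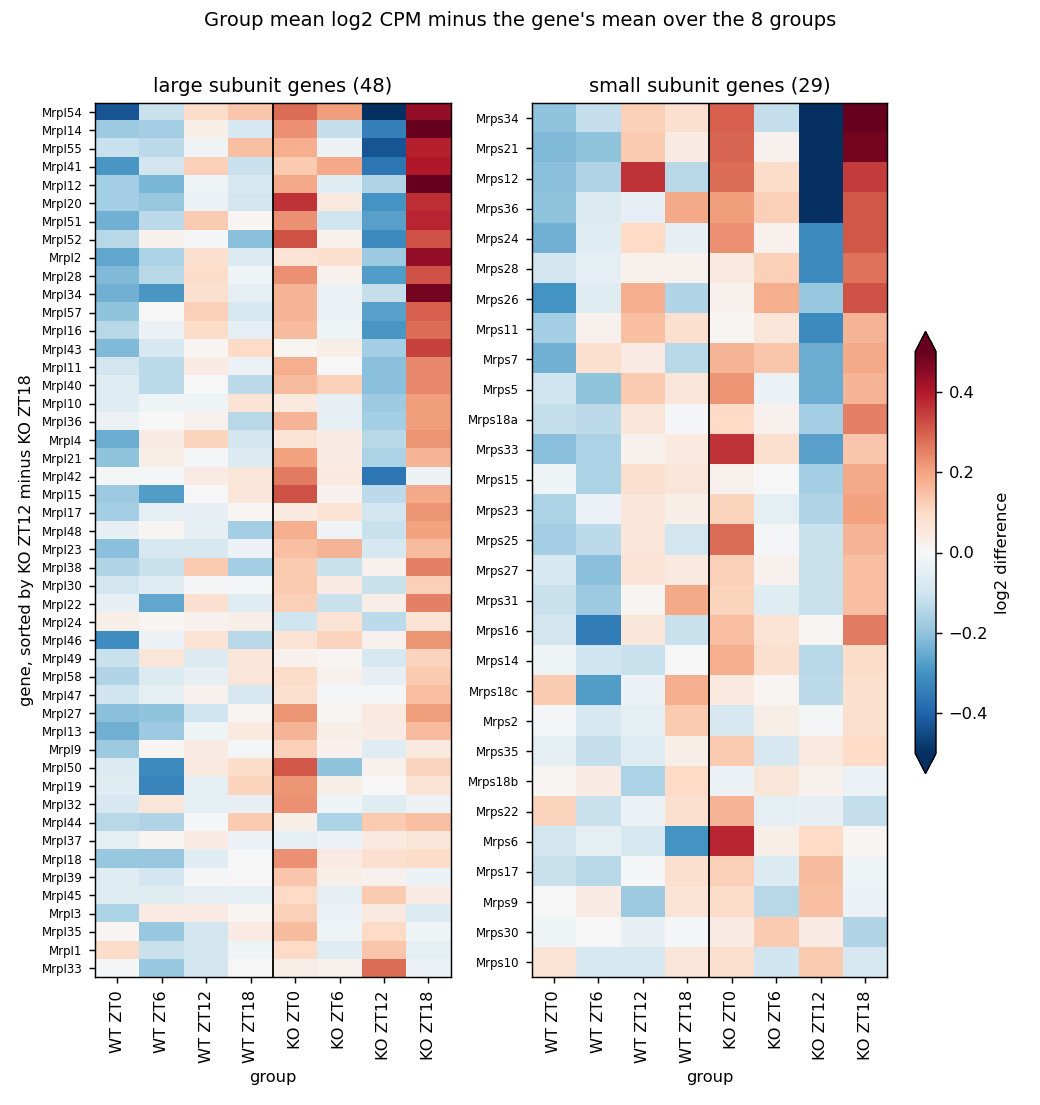
Group mean log2 CPM minus the mean of the gene over the 8 groups (colour, blue lower, red higher) for the 48 tested large subunit genes (left) and 29 small subunit genes (right), sorted by KO ZT12 minus KO ZT18, with groups along the horizontal axis. The KO ZT12 column is mostly blue, the lowest KO time for 54 of 77 genes, and the KO ZT18 column mostly red, while the WT columns are paler.

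Within WT, time of day was called for 1 of the 77 genes, where 4.91% of all genes tested were called. The gene was Mrpl4 (adjusted p = 0.0482), a large subunit protein that lines the tunnel through which the new protein leaves. It was 34.3, 34.5, 31.2 and 42.7 CPM at ZT0 and 40.6, 46.0, 40.0, 46.7 and 44.3 CPM at ZT6, ran from 37.7 through 46.7 to 52.7 CPM at ZT12, and was 38.9, 39.6, 40.1 and 39.5 CPM at ZT18. The ranges of the 4 WT groups overlapped, those of ZT6 and ZT18 only by 1 library each, at 40.0 and 40.1 CPM. The call was lost in 29 of 38 fits that left out 1 library. Mrps5 and Mrpl50, another large subunit gene, had adjusted p of 0.0758 and 0.0764.

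Within KO, time of day was called for 28 of the 77 genes (36.4%, where 21.9% of all genes were), and the 18 genes of the interaction were all among them. KO ZT12 was the lowest KO time for 54 of the 77 genes (70.1%, against 31.1% of all genes). ZT18 was the highest KO time for 45 (58.4%, against 29.6%) and ZT0 for 22 (28.6%, against 24.4%). In WT the lowest time was ZT0 for 38 genes (49.4%, against 24.7%) and ZT6 for 29 (37.7%, against 27.3%). The highest WT time was ZT12 for 37 (48.1%, against 24.6%) and ZT18 for 30 (39%, against 21.1%). WT ZT12 and KO ZT18 hold most of the low-rRNA libraries, and the part of this split was not tested. The median difference between the highest and lowest group mean was 0.36 on the log2 scale in KO and 0.23 in WT, against 0.59 and 0.42 for all genes. Mrpl52, Mrps21 and Mrpl51 had the smallest p-values in KO, with adjusted p of 0.00105, 0.00115 and 0.00247. Mrpl51, a large subunit protein, was 24.2, 25.4, 31.7 and 21.5 CPM at ZT0, ran from 14.8 through 20.5 to 28.1 CPM at ZT6, and was 17.8, 17.7, 15.9 and 20.8 CPM at ZT12 and 26.7, 25.9, 29.6 and 30.8 CPM at ZT18. Its ZT12 libraries all lay below those of ZT0 and ZT18. Markers were also called for time within KO: 9 of 12 for microglia, 5 of 12 for OPCs, 11 of 12 for neurons and 7 of 8 for astrocytes. So were 7 of 8 oligodendrocyte, 6 of 8 endothelial and 7 of 7 red blood cell markers. Their part in the counts of the family was not tested. Without the low-rRNA libraries, and so without ZT18, 9 genes were called in KO, 13 without ZT18 alone, and 18 without KO ZT12 replicate 1.

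Members with other defined roles were mostly not called. Of the core of the large subunit, Mrpl3, at 9.68 CPM per kb, had log2 fold changes of 0.28, -0.07, 0.01 and -0.08 (times in order from ZT0 to ZT18, here and below), and Mrpl2, at 17.2 CPM per kb, was called in the interaction (adjusted p = 0.038). The stalk genes differed in level, with Mrpl10 at 15.5 and Mrpl12 at 10.3 CPM per kb. Mrpl10, the base of the stalk that recruits translation factors, had fold changes of 0.11, -0.01, -0.17 and 0.12, none called. Mrpl12, which binds to it, had 0.36, 0.20, -0.11 and 0.61. At ZT18 Mrpl12 was 15.1, 16.8, 15 and 12.1 CPM in WT and 21.8, 23.4, 20.5 and 24.4 CPM in KO, apart but at an adjusted p of 0.0875.

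The paralogs Mrps18a, Mrps18b and Mrps18c are related to 1 bacterial protein, and the product of Mrps18a is known to sit in the large subunit despite its name. They stood at 5.92, 4.37 and 8.5 CPM per kb. Mrps18a had fold changes of 0.22, 0.15, -0.22 and 0.24 and thus the sign pattern seen in most of the family, whereas Mrps18b had -0.05, 0.02, 0.17 and -0.13 and Mrps18c -0.08, 0.29, -0.10 and -0.11. None was called in any of the 8 tests. Whether the paralogs differ from each other was not tested.

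Mrpl58, a peptidyl-tRNA hydrolase that frees stalled chains, had 0.27, 0.09, 0.01 and 0.06, and Mrpl44, which has the fold of RNase III, had 0.17, 0, 0.13 and 0.02, with no call for either. Mrps36, whose product is now known as a subunit of the ketoglutarate dehydrogenase complex rather than of the ribosome, had the lowest mean level of the 77 tested genes in CPM (8.88) and was called for time within KO (adjusted p = 0.0165). It was 8.31, 4.57, 4.48 and 7.41 CPM at KO ZT12 and 10.3, 11.1, 10.1 and 11.4 CPM at KO ZT18, without overlap.

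The members are short genes, with a median length of 2255 bases against 4251 for all protein-coding genes tested, and 43 of the 77 fall in the shortest quartile (up to 2643 bases). Fold changes followed length across all protein-coding genes. Genes of the shortest quartile had median log2 fold changes of 0.14, 0.10, -0.15 and 0.20, and those of the longest quartile -0.08, -0.04, 0.06 and -0.06. The 43 members of the shortest quartile had 0.33, 0.13, -0.20 and 0.29, the same signs as short genes in general. The 9 members of the longest quartile had 0.20, 0.11, 0.07 and 0.07, with no negative median at ZT12. At ZT0 the median of the members was above that of all coding genes of the same quartile in every quartile. At ZT12 the 2 medians of a quartile differed by at most 0.05, as in the shortest quartile. At ZT18 the medians of the members, from the shortest quartile up, were 0.29, 0.07, 0.09 and 0.07. Those of all coding genes were 0.20, 0.11, 0.05 and -0.06, so the members were lower in quartile 2. The part of length in the results above was not tested.

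**Figure D5:**
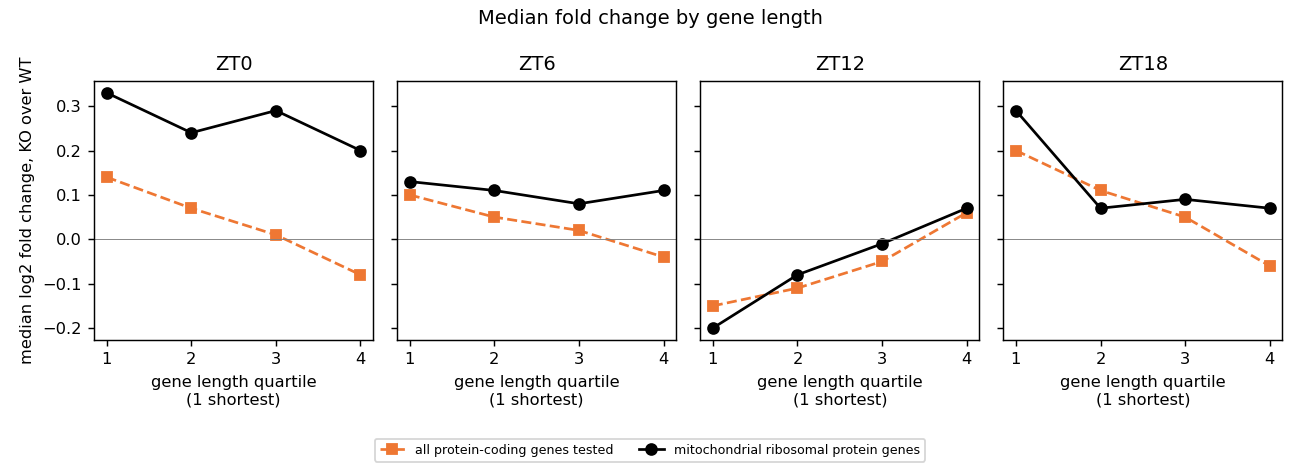
Median log2 fold change of KO over WT (vertical axis) by quartile of gene length (horizontal axis, 1 is shortest) at each time, for the tested members (black circles; 43, 14, 11 and 9 genes by quartile) and all protein-coding genes tested (orange squares). At ZT12 both run from below 0 for short genes to 0.07 and 0.06 for long genes.

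Other genes of mitochondrial translation were read from lists drawn up with earlier results known. The 5 mitoribosome proteins that carry other names had median fold changes of 0.27, 0.12, -0.03 and 0.25, and 1 of them was called at a single time. This was Gadd45gip1, a large subunit protein, which fell by 0.96 at ZT12 (SE 0.227, adjusted p = 0.0117) and was also called in the interaction (adjusted p = 0.00522). Dap3, a GTP-binding protein of the small subunit, had 0.21, 0.12, 0.02 and 0.11. Ptcd3, also of the small subunit, had -0.07, -0.06, 0.19 and -0.18, with none called.

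None of the 20 assembly factors was called at a single time, and their medians were 0.03, 0.07, -0.08 and -0.05. Noa1, a GTPase of the assembly of the small subunit, had -0.41 at ZT12 (adjusted p = 0.055) and was called in the interaction (adjusted p = 0.0237). Of 16 translation factors, Tufm, the elongation factor that delivers charged tRNAs, fell by 0.42 at ZT12 (SE 0.111, adjusted p = 0.0229), and Guf1, a GTPase that acts on elongating ribosomes, fell by 0.49 at ZT18 (SE 0.135, adjusted p = 0.0468). Tufm (adjusted p = 0.00382), its exchange factor Tsfm (0.0179) and C1qbp (0.0454) were called in the interaction. The medians of the list were 0.05, 0.04, -0.02 and 0.05.

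The 20 mitochondrial aminoacyl-tRNA synthetases, which charge the tRNAs, had medians of -0.02, 0.01, 0.04 and 0.05. Lars2, for leucine, was the 1 called at a single time: it fell by 2.48 at ZT18 (SE 0.588, adjusted p = 0.0224), where ribosomal RNA genes took 0.0946% to 0.263% of counts in KO and 0.777% to 0.998% in WT. In WT ZT12 the list summed to 606.6, 555.2 and 578.6 CPM in low-rRNA libraries and to 1080, 1635 and 1305 CPM in the others. In KO ZT6 the list summed to 590.6 CPM in low-rRNA replicate 7 and to 1050 to 2140 CPM in the others. The part of this split in the fall of Lars2 was not tested. Sars2, which shares its start region with Mrps12, had -0.29 at ZT12 (adjusted p = 0.172). Among 12 regulators of mitochondrial biogenesis, the nuclear receptor Esrra fell by 0.55 at ZT12 (SE 0.153, adjusted p = 0.0309), and the list's medians were -0.04, 0.06, -0.06 and 0.03.

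The messenger RNAs that the mitoribosome translates ran the other way at ZT12 and ZT18, though none was called. Of the 13 mitochondrially encoded messenger RNAs, 12 were tested, with medians of 0.02, -0.02, 0.20 and -0.26; 10 of 12 were positive at ZT12 and 0 of 12 at ZT18. Their mean levels were uneven, at 6830 CPM for mt-Co1 and 2890 CPM for mt-Cytb. They were only 20.2 CPM for mt-Co2, 13.4 for mt-Co3, 11.2 for mt-Atp6, 4.3 for mt-Nd3 and 2.27 for mt-Nd4l. The medians and sign counts weigh all of these alike, whereas the sums below rest mostly on the abundant ones. mt-Nd6, a subunit of complex I, had 0.33 at ZT12 (adjusted p = 0.0682). In WT ZT12 all 13 summed to 11610, 13480 and 13900 CPM in low-rRNA libraries and to 16030, 17130 and 16110 CPM in the others. In KO ZT12 they summed to 14920 to 18480 CPM. All KO ZT18 libraries were low-rRNA libraries, and the part of this split was not tested. The mitochondrial ribosomal RNAs mt-Rnr1 and mt-Rnr2 had 0.16 and 0.29 at ZT12 and -0.14 and -0.25 at ZT18, none of these called. Selection for poly-A tails leaves little ribosomal RNA, so these last values describe what passed the selection.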

How the data were processed

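A table deposited by the authors holds raw counts of reads for each gene in 38 poly-A selected, paired-end libraries, with gene lengths in bases. The submitters' processing notes name fastp, HISAT2 2.0.5, featureCounts 1.5.0-p3 and GRCm38 (mm10); annotation release and strand setting: not given in the sources used here. Counts were used as deposited. Sample titles gave the groups and replicate numbers.

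Genes passing filterByExpr by group were kept (22798 genes, 99.95% of counts), scaled by TMM and fitted as 8 group means with edgeR 4.0.16 (glmQLFit, glmQLFTest; limma 3.58.1, DESeq2 1.42.0 and limma-voom as alternatives, R 4.3.3). Contrasts set KO against WT at single times and over the mean of the 4 times. The interaction and time within genotype were tested with 3 degrees of freedom. Benjamini-Hochberg adjustment ran over all genes tested, with a threshold of 0.05. CPM used TMM-scaled library sizes and log2 CPM a prior count of 2.

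The members and gene lists were chosen with earlier results of these data known. Genes were named by rule: those called at a single time, up to 10, or the 3 smallest p-values where fewer than 3 were called; the 3 smallest in the other tests; the 3 highest and lowest levels per kb; genes of fixed roles; the untested gene; and, from each list, called genes or up to the 3 smallest p-values at a time. Mrpl20, Mrps24, Mrps34, Mrpl37, Dap3 and mt-Rnr1 were named after their values were seen, as were the genes named only for their neighbours.

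Within groups, every pair of libraries differed by more than sampling noise (smallest chi-square per degree of freedom 12.54 over 76 pairs). The labels do not say whether the libraries of a group are from separate litters, so p-values measure the spread between these libraries. The 0.3% limit for low-rRNA libraries was set after their shares were seen. Other scalings, no filter, other tools, the replicate number as a block, and leaving out the low-rRNA libraries, ZT18 or each library in turn were tried.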

Additional observations from a re-analysis of the deposited data

Results flagged for a closer look

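Single libraries stood apart from their group in 14 of 160 group values screened (17 named genes and 3 family means in groups of 4 to 7 libraries), by the gap to the nearest library as a share of the group's range (Dixon's test, whose limit is set so that chance passes it in about 1 in 20 groups). In KO ZT12 replicate 3 the mean log2 CPM of the small subunit genes was low at 3.97, Mrps12 was low at 3.16 CPM and Mrpl27 was high at 28.4 CPM. In KO ZT6 replicate 3, Mrpl13 at 38.2 CPM and Mrps33 at 29.7 CPM were high. In KO ZT0 replicate 3, Mrpl52 at 50.8 CPM and Mrps33 at 35.5 CPM were high, and in KO ZT18 replicate 4 Mrpl4 was high at 51.4 CPM. In WT ZT0 replicate 4, Mrps5 was high at 47.1 CPM. In WT ZT18 replicate 1, Mrpl19 at 22 CPM and Mrps12 at 12.9 CPM were high, and in WT ZT18 replicate 3 Mrpl27 was low at 16.1 CPM. Mrpl52 was low in WT ZT6 replicate 3, at 24.7 CPM, and Mrpl19 in WT ZT12 replicate 2, at 14.2 CPM.

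The KO difference depended on time, by the interaction of genotype and time in edgeR's quasi-likelihood test, for 18 genes. The adjusted p was 0.00283 for Mrpl52, 0.00339 for Mrps7, 0.00445 for Mrps21, 0.00522 for Mrpl41, 0.0065 for Mrps5 and 0.00675 for Mrpl51. It was 0.0079 for Mrps12, 0.00812 for Mrpl4, 0.00875 for Mrpl57, 0.0115 for Mrpl54, 0.0155 for Mrps26 and 0.0176 for Mrpl16. It was 0.0259 for Mrps33, 0.0277 for Mrps24, 0.0287 for Mrpl20, 0.038 for Mrpl2, 0.0391 for Mrpl28 and 0.0477 for Mrpl15. Mrpl54, Mrpl41 and Mrps26 had log2 fold changes at ZT12 of -0.62, -0.45 and -0.36 and at ZT0 of 0.74, 0.42 and 0.32. At ZT6 Mrpl4, Mrpl57 and Mrpl16 had 0, -0.01 and 0.02.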

How the results depend on the processing

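The median log2 fold changes of the family kept their sign in every setting that gives a value. They ran from 0.079 to 0.121 over all times, 0.205 to 0.335 at ZT0 and 0.069 to 0.145 at ZT6. At ZT12 they ran from -0.175 to -0.066 and at ZT18 from 0.096 to 0.21. All moved by less than 0.1, the SD of the family mean between libraries of a group. That limit is about the size of the medians over all times, at ZT6 and at ZT12, so staying within it says little there. The fold changes recomputed for single genes also kept their sign: Mrps16, Mrpl13 and Mrpl27 over all times, Mrpl15, Mrps7 and Mrps33 at ZT0, Mrps16, Mrpl19 and Mrpl15 at ZT6, the 4 called genes at ZT12, and Mrpl52, Mrpl41 and Mrpl2 at ZT18. Counts of genes called moved more. The share of all genes called in each setting is not given beside them. The counts that follow thus do not tell a change of the family from a change across all genes. With RLE scaling, time within WT gave 0. With library size alone, ZT0 gave 1, ZT12 2 and time within WT 5. With no filter on low counts, ZT12 gave 2 and time within WT 0. DESeq2 called 3 over all times, 8 at ZT0, 11 at ZT12 (9 lower), 5 at ZT18 and 4 for time within WT. Limma-voom called 10 at ZT12 (9 lower) and 7 at ZT18. With the replicate number as a block, 6 were called at ZT0, 5 at ZT18 and 0 for time within WT; same-numbered libraries of the 2 genotypes correlated at -0.0908 to 0.24 over 17 pairs, 3 correlating best with their own number, so the numbers do not pair them. Without the low-rRNA libraries, 0 were called at ZT12, 0 in the interaction, 0 for time within WT and 9 for time within KO; ZT18 has no value there. Without ZT18, a setting chosen after seeing the data, 10 were called in the interaction, 0 for time within WT and 13 within KO. Leaving out each library in turn gave 0 to 6 over all times, 0 to 21 at ZT0, 0 at ZT6, 0 to 9 at ZT12, 0 to 2 at ZT18, 10 to 21 in the interaction, 0 to 4 for time within WT and 18 to 33 within KO. The call of Mrps11 at ZT12 was lost in 27 of these 38 fits, of Mrpl52 at ZT18 in 7, of Mrps5 in 3, of Mrps21 in 2 and of Mrps12 in 1; the cause was not tested.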
